A study of Mus musculus with 7 samples.

Results

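Genes that mark macrophages and monocytes of the lung were followed through 7 arrays of sorted lung cDC1, to see whether their mRNA differed between tumor-bearing and normal lungs or between single pools of cells. The list was fixed by name, with earlier results of these data known, and held 38 genes. They fall into 14 alveolar macrophage markers, 8 genes of the C1q and interstitial macrophage type, 10 monocyte markers and 6 genes of activated or lipid-laden macrophages. Of these, 36 had a probe set of their own among the 25428 on the array. Lyz2 and Ear1 had none under their names, and they are near-identical copies of Lyz1 and Ear2, so that signal assigned to Lyz1 and Ear2 is uncertain within each pair. No gene was left out for a low value.

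There were 4 arrays of normal lungs (nLung) and 3 of lungs that bore late KP tumors, written KP(l), all from C57/BL6 mice (the spelling of the sample labels). KP(l) mice had received 100000 KP cells, primary lung tumor cells that lack p53, through the tail vein, and lungs were taken on day 28. nLung mice are labelled healthy controls and, by the study's methods, were injected with PBS. Each array held RNA of cDC1 from a pool of lungs of 2 to 3 mice, enriched with CD11c beads and sorted with antibodies to CD11c, CD103, CD11b, MHC class II and SiglecF. The age and sex of the mice are not given in the sources used here.

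Alveolar macrophages line the air spaces and clear surfactant, a task for which they carry genes of lipid uptake and storage under the nuclear receptor PPARγ. Interstitial macrophages sit in the tissue around airways and vessels and make the complement component C1q. Monocytes enter from the blood and can become macrophages or dendritic cells, and macrophages in tumors and damaged tissue often carry genes of matrix handling and lipid loading. Lung cDC1 and alveolar macrophages both display CD11c, and SiglecF, which the macrophages carry on their surface, is one of the antigens that part them in a sort.

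The identity of the sorted cells was read from 14 cDC1 genes. All 4 of Irf8, Batf3, Clec9a and Xcr1 were well above the array median in every array, with Irf8 at 1202 to 1611 and Clec9a at 1104 to 1741 on the linear scale. Linear expression here is 2 to the power of the deposited log2 value, with arbitrary units. The summed linear expression of the cDC1 genes was 12470 to 15050 in nLung and 11550 to 14770 in KP(l). Beside the groups, 2 sets of arrays were told apart, by the upper quartile of all values and by no label, and each holds both groups. Replicates 1 and 2 of both groups had upper quartiles of 5.11 to 5.17 on the log2 scale, and nLung replicates 3 and 4 and KP(l) replicate 3 had 5.22 to 5.28. Differences within each set are given for many of the genes below, as values with no test. The second set holds KP(l) replicate 3 as its only KP(l) array, so its values are also those of a single KP(l) pool.

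Promoter windows are printed for 4 members, because many of the markers moved together from array to array and the windows let their upstream sequence be compared. The windows are from RefSeq (GRCm38.p6), run from 250 bases before the start of the gene to 50 bases after it, and read 5′ to 3′ on the strand of the gene. Capitals mark matches, on either strand, to GAGGAA, the core letters bound by PU.1, a factor that macrophages need, or to TGCTGA, the half-site of MAF factors. The opposite strand of the first motif reads TTCCTC. C1qb lies at chr4:136886151-136886450 on the minus strand, Trem2 at chr17:48346151-48346450 on the plus strand, Mrc1 at chr2:14229164-14229463 on the plus strand and Car4 at chr11:84957504-84957803 on the plus strand.
C1qb: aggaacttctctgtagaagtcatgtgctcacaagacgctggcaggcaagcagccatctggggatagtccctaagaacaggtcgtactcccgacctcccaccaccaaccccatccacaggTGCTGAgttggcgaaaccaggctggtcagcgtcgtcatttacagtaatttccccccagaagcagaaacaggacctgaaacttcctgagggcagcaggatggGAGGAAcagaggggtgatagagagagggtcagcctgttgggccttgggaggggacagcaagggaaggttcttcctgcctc
Trem2: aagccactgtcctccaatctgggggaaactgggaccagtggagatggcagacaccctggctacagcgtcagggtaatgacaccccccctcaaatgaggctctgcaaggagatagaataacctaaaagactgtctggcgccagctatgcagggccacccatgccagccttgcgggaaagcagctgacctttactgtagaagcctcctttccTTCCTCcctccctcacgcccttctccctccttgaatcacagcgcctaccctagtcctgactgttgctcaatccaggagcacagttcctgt
Mrc1: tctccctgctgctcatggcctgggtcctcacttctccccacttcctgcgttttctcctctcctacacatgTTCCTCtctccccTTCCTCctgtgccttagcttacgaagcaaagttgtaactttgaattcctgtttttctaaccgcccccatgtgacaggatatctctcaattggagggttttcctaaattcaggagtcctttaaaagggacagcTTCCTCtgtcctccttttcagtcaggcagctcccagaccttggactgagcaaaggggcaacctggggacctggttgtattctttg
Car4: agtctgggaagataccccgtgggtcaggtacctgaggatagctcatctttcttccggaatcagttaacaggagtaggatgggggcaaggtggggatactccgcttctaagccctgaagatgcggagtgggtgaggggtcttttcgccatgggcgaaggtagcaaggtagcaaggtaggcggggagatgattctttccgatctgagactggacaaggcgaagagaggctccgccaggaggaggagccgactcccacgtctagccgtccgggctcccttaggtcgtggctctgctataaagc
The C1qb window held the PU.1 letters starting at -30 and the MAF letters starting at -131 from the start of the gene. The Trem2 window held the PU.1 letters at -40, and that of Mrc1 held them at -180, -167 and -35. The Car4 window held neither motif, which says only that these letters are not in these 300 bases. RefSeq windows were read for 29 members, with 38 windows in all. Windows and not genes were counted, so some genes count more than once, and those of Ly6c2 overlap. Ear1 and Lyz2, which have no probe set, are included. The PU.1 letters were in 17 of the 38 (44.7%), beside 28.3% of all 32851 windows of this length in the table, and the MAF letters were in 9 (23.7%), beside 19.5%. A match is a description of sequence and does not show that a factor binds there.

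No member passed the test between KP(l) and nLung. In limma, with Benjamini-Hochberg adjustment over the whole array, 0 of 36 members reached an adjusted p of 0.05 or less with a fold change of 2 or more, and 0.00% of all probe sets did. The smallest adjusted p of a member was 0.912. A rewritten SAM called 0 probe sets as well, with a lowest false discovery rate of 15.2%. The study itself, with SAM in samr at the same thresholds, reported transcripts that passed. Those calls were not reproduced here, and the reason was not tested. At an unadjusted p under 0.05, limma had 7 members higher in KP(l), beside 2.62% of all probe sets, and 1 member lower, beside 2.24%. These 8 members were Ear2, C1qb, Ms4a7, Plac8, Fn1, Spp1 and Gpnmb on the higher side and Lyz1 on the lower side. The count depended on single arrays, since it was 2, 0 and 16 when KP(l) replicate 1, 2 or 3 was left out in turn. Without nLung replicate 1, 2, 3 or 4 it was 5, 3, 4 and 3. A mean that was higher by 2-fold or more in KP(l) was found for 15 members, beside 0.979% of all probe sets, and one lower by as much for 0 members, beside 0.865%. Groups that did not overlap were few, among the members as among all probe sets. In 2 members (5.56%) every KP(l) array was above every nLung array, beside 2.12% of all probe sets. In 1 member (2.78%) every KP(l) array was below, beside 1.72%. Of the 15 members with a 2-fold difference, only Plac8 had groups that did not overlap, and the values of single arrays show where the differences lay.

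**Figure D1:**
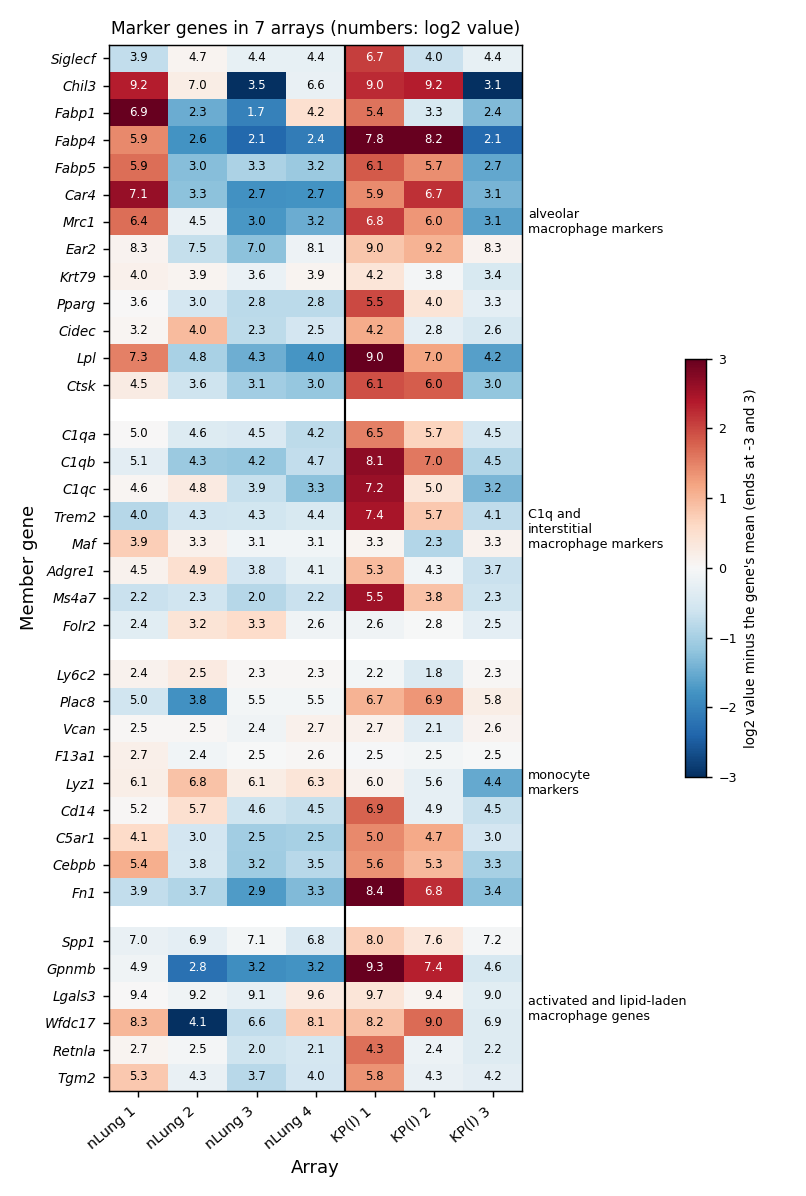
Each row is a marker gene and each column an array, and the color is the log2 difference of that array from the mean of the gene over the 7 arrays. KP(l) replicate 1 was the highest array in 23 of 36 members, and KP(l) replicate 3 was the highest in 0.

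Among the alveolar macrophage markers, nLung replicate 1 and KP(l) replicates 1 and 2 were the 3 highest arrays in 9 of the 13 genes measured, counting Ear2, in which nLung replicate 1 tied with KP(l) replicate 3. Fabp4, which carries fatty acids within the cell, had linear expression of 59.1, 6.25, 4.23 and 5.09 in nLung replicates 1 to 4 and of 217, 302 and 4.33 in KP(l) replicates 1 to 3. KP(l) replicate 3 was thus within the range of the nLung arrays, and the other two KP(l) arrays were above it. The mean log2 difference, KP(l) minus nLung, was 2.80 ± 1.70 (SE, limma, n = 4 and 3, adjusted p = 0.912). Within the first set of arrays it was 3.74 and within the second -0.10.

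Car4, a carbonic anhydrase tethered to the cell surface, had 138, 9.61, 6.40 and 6.52 in nLung and 60.3, 102 and 8.58 in KP(l). Its highest array was a control, and nLung replicate 1 was 14.4-fold above the next nLung array. The difference was 1.29 ± 1.35 on the log2 scale (SE, limma), with 1.11 within the first set and 0.41 within the second. Mrc1, the mannose receptor, had 82.8, 22.1, 7.76 and 9.16 in nLung and 111, 65.5 and 8.46 in KP(l). Lpl, the lipase that releases fatty acids from lipoproteins, had 159, 28.4, 20.1 and 16.3 in nLung and 509, 126 and 17.9 in KP(l). Both genes showed the same order of arrays at the top, with KP(l) replicate 1 first, and KP(l) replicate 3 within the nLung range. Their differences of 1.05 ± 1.15 for Mrc1 and 1.59 ± 1.28 for Lpl (SE, limma) were close to 1 SE or a little more, and within the second set of arrays they were 0.00 and -0.02.

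Chil3, a chitinase-like protein that alveolar macrophages release in quantity, had 576, 132, 11.7 and 97.3 in nLung and 526, 578 and 8.64 in KP(l). It had among the widest spans of the list, 66.8-fold from the lowest array to the highest, and both ends of that span were KP(l) arrays. The difference was 0.52 ± 1.88 (SE, limma), with 1.0 within the first set and -1.97 within the second. Fabp5, another fatty acid carrier, had 61.0 in nLung replicate 1 and 7.98 to 9.91 in the other nLung arrays, and 68.8, 50.7 and 6.52 in KP(l). Fabp1, the fatty acid carrier best known from liver, had 123, 4.78, 3.29 and 18.8 in nLung and 41.4, 9.64 and 5.41 in KP(l). In Fabp5 the control array nLung replicate 1 stood with KP(l) replicates 1 and 2 rather than with its own group, and in Fabp1 it was the highest of all.

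In Ear2, Pparg and Ctsk the nLung arrays stayed closer together, with nLung replicate 1 again the highest of them. Ear2, a ribonuclease of the family first described in eosinophils, had 315, 177, 124 and 265 in nLung and 518, 606 and 315 in KP(l), with the highest nLung array and KP(l) replicate 3 at the same value. Its difference was 1.16 ± 0.38 (SE, limma, unadjusted p = 0.0194, adjusted p = 0.912), and unlike those above it was similar within the first set, at 1.25, and the second, at 0.79. Pparg, the receptor on which alveolar macrophage development depends, had 11.9, 8.25, 6.79 and 6.77 in nLung and 46.7, 15.7 and 9.57 in KP(l). The protease gene Ctsk, cathepsin K, had 21.9, 11.96, 8.83 and 8.24 in nLung and 69.9, 64.3 and 7.99 in KP(l). KP(l) replicates 1 and 2 were above every nLung array in both, and KP(l) replicate 3 was below nLung replicate 1 in both.

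Among the remaining alveolar markers, Krt79, a keratin, ranged over the 7 arrays from 10.2 to 18.6, and Cidec, a lipid droplet protein, from 4.91 to 18.3. Siglecf encodes an antigen used in the sort to part cDC1 from alveolar macrophages, and whether the gate affected its mRNA level was not tested. It had 15.1, 26.8, 21.1 and 21.1 in nLung and 107, 15.8 and 21.1 in KP(l), a difference of 0.68 ± 0.65 (SE, limma), and KP(l) replicate 1 was the one array apart. In KP(l) replicate 2, in which Fabp4 and Chil3 were at their highest, Siglecf was below 3 of the 4 nLung arrays.

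**Figure D2:**
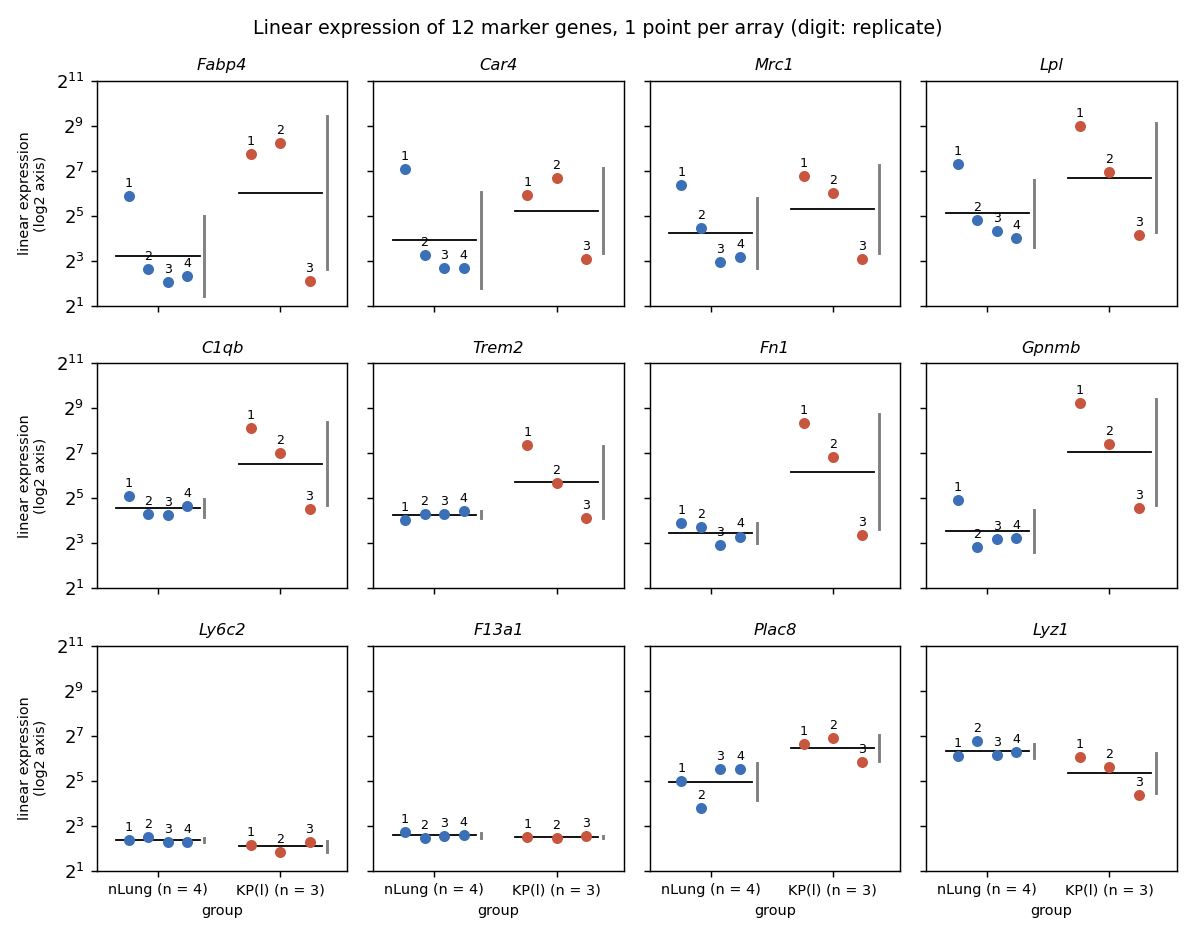
Linear expression on a log2 axis for 12 marker genes, with 1 point for each of 4 nLung and 3 KP(l) arrays, a black line for the mean of the log2 values and a grey bar for 1 SD of them to either side. nLung replicate 1 stands with KP(l) replicates 1 and 2 in Fabp4, Car4, Mrc1 and Lpl but not in Trem2 or Fn1, while Ly6c2 and F13a1 are flat and low in all 7 arrays.

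In 5 of the 8 C1q and interstitial macrophage genes, which were C1qa, C1qb, C1qc, Trem2 and Ms4a7, KP(l) replicates 1 and 2 were both above every nLung array. C1qb, which encodes a chain of C1q, had 34.4, 19.8, 19.1 and 25.6 in nLung and 277, 128 and 22.8 in KP(l). KP(l) replicates 1 and 2 were well above the nLung arrays, and KP(l) replicate 3 was within their range. The log2 difference was 1.96 ± 0.80 (SE, limma, unadjusted p = 0.0468, adjusted p = 0.912), with 2.85 within the first set of arrays and 0.04 within the second.

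The other chains of C1q had the same arrays on top. C1qa had 31.9, 23.98, 23.3 and 18.5 in nLung and 89.95, 50.1 and 22.02 in KP(l), a difference of 0.95 ± 0.46 (SE, limma), with 1.28 within the first set and 0.09 within the second. C1qc had 24.6, 28.7, 14.8 and 10.02 in nLung and 142.9, 30.9 and 9.22 in KP(l), a difference of 0.94 ± 0.91 (SE, limma), with 1.33 and -0.40 within the sets. In C1qc KP(l) replicate 2 was only a little above nLung replicate 2, and KP(l) replicate 3 was the lowest of the 7 arrays. Trem2, a receptor for lipids and cell debris, had 16.6, 19.7, 19.9 and 21.5 in nLung and 164, 51.9 and 17.5 in KP(l), a difference of 1.46 ± 0.68 (SE, limma), with 2.35 and -0.24 within the sets. Its nLung arrays were close together, with nLung replicate 1 the lowest of them, whereas for Fabp4, Car4, Mrc1 and Lpl that array was the highest.

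Ms4a7, a membrane protein of tissue macrophages, had 4.73, 5.01, 4.14 and 4.71 in nLung and 43.9, 13.9 and 4.93 in KP(l). The nLung arrays were flat and KP(l) replicate 3 was among them. The difference was 1.64 ± 0.67 (SE, limma, unadjusted p = 0.0456, adjusted p = 0.912), and it was 2.34 within the first set and 0.16 within the second. Other genes of this list did not have this pattern. Adgre1, the gene of a macrophage surface receptor of the adhesion type, had a difference of 0.11, the transcription factor gene Maf -0.39, and the folate receptor gene Folr2 -0.26. Maf was highest in nLung replicate 1 and Folr2 in nLung replicate 3.

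Monocyte markers were split. Some of them were low and flat in all 7 arrays. Ly6c2, the surface antigen of inflammatory monocytes, ranged from 3.501 to 5.67, the proteoglycan gene Vcan from 4.43 to 6.30, and F13a1, a coagulation factor subunit, from 5.43 to 6.55. Medians of all values on the arrays were 3.49 to 3.57 on the log2 scale, and these 3 genes were below the median in every array. Among genes listed for monocytes outside the members, others were high in all arrays, with Ccr2, a chemokine receptor, at 1589 to 2324, Nr4a1, a nuclear receptor of patrolling monocytes, at 570.2 to 1138 and Treml4, a surface receptor, at 145 to 503. Whether cDC1 or monocytes made the RNA of Ccr2, Nr4a1 and Treml4 was not tested.

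Plac8 was one of the 2 members with every KP(l) array above every nLung array. It is a small protein of monocytes that other leukocytes and plasmacytoid dendritic cells also make. It had 31.9, 13.7, 45.5 and 45.5 in nLung and 100.1, 120.1 and 56.1 in KP(l). The difference was 1.51 ± 0.49 (SE, limma, unadjusted p = 0.0187, adjusted p = 0.912), with 2.39 within the first set and 0.30 within the second. Lyz1, a lysozyme, was the one member with every KP(l) array below every nLung array. It had 69.1, 109.7, 70.0 and 78.1 in nLung and 65.5, 49.4 and 20.5 in KP(l). Its difference of -0.99 ± 0.41 (SE, limma, unadjusted p = 0.0470, adjusted p = 0.912) was -0.61 within the first set and -1.85 within the second, and KP(l) replicate 3 was the lowest array. Lyz2, which shares nearly all of its sequence, was not measured under its own name.

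Fn1, fibronectin, which monocytes and many macrophages deposit in the matrix, had 14.9, 13.2, 7.60 and 9.87 in nLung and 331, 114 and 10.3 in KP(l). The nLung arrays were close, KP(l) replicates 1 and 2 were far above them, and KP(l) replicate 3 was among them, as for C1qb. The difference was 2.73 ± 1.10 (SE, limma, unadjusted p = 0.0438, adjusted p = 0.912), with 3.79 within the first set and 0.25 within the second. Cebpb, a transcription factor of myeloid cells, instead followed the alveolar pattern. It had 41.5, 13.7, 9.45 and 11 in nLung and 49.9, 38.5 and 9.91 in KP(l), a difference of 0.78 ± 0.73 (SE, limma), with 0.88 and -0.04 within the sets. The receptor for complement C5a, C5ar1, had 17.2, 7.89, 5.69 and 5.86 in nLung and 31.6, 25.6 and 7.89 in KP(l). For Cd14, a co-receptor for bacterial lipopolysaccharide, KP(l) replicate 1 stood alone at 123, while the other 6 arrays ranged from 22.1 to 50.7.

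Of the genes of activated and lipid-laden macrophages, Gpnmb had the largest mean difference of all 25428 probe sets on the array, in either direction. Gpnmb is a membrane glycoprotein of macrophages that have taken up much lipid or debris. It had 30.3, 7.05, 9.05 and 9.51 in nLung and 611, 168 and 23.6 in KP(l). KP(l) replicate 3 was above 3 of the 4 nLung arrays and below nLung replicate 1, so that the groups overlapped by that pair alone. The difference was 3.53 ± 1.10 (SE, limma, unadjusted p = 0.0162, adjusted p = 0.912). It was above 0 within both sets, at 4.46 in the first and 1.35 in the second, and it was 2.44 without KP(l) replicate 1.

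Spp1, osteopontin, a secreted protein of tumor macrophages, was the other member with every KP(l) array above every nLung array. It had 128, 121, 141 and 107.5 in nLung and 248, 191 and 142 in KP(l). The gap between the groups was narrow, since KP(l) replicate 3 was close to nLung replicate 3. The difference was 0.61 ± 0.20 (SE, limma, unadjusted p = 0.0205, adjusted p = 0.912), below the 2-fold threshold, with 0.80 within the first set and 0.21 within the second.

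Lgals3, galectin-3, is made by macrophages and by dendritic cells. It was high in all arrays, with 661, 604, 540.1 and 793 in nLung and 854, 700.3 and 514 in KP(l), and a difference of 0.07 ± 0.21 (SE, limma), with 0.29 and -0.35 within the sets. Wfdc17, a small secreted protein of activated macrophages, had 319.7, 16.8, 96.1 and 273 in nLung and 300.2, 521 and 123 in KP(l). Its nLung arrays were almost as far apart as all 7, and the difference was 1.30 ± 1.10 (SE, limma), with 2.43 and -0.40 within the sets. Tgm2, a transglutaminase of alternatively activated macrophages, had 39.98, 19.4, 12.8 and 15.6 in nLung and 57.7, 19.4 and 18.4 in KP(l), a difference of 0.47 ± 0.54 (SE, limma), with 0.26 and 0.38 within the sets. Retnla, which marks the same state, was low, with 19.3 in KP(l) replicate 1 and 3.998 to 6.51 elsewhere.

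Set out by list, the median differences were above 0 for all 4 lists. The median log2 difference was 1.05 for the 13 alveolar markers measured, 0.94 for the 8 C1q and interstitial genes, 0.47 for the 9 monocyte markers and 0.63 for the 6 activated and lipid-laden genes. It was 0.86 over all 36 members and 0.02 over all probe sets. Within the first set of arrays these medians were 1.11, 1.30, 0.48 and 0.76, and within the second -0.02, -0.10, 0.00 and 0.20. These medians were larger within the first set, but KP(l) replicate 3 is the only KP(l) array of the second. A difference between the sets cannot be told apart from a difference of that pool. Over all probe sets the medians were 0.00 and 0.01. The median SD of an alveolar marker was 1.39 within nLung and 1.77 within KP(l) on the log2 scale, while that of all probe sets was 0.22 and 0.20. For the C1q and interstitial genes the SD was 0.39 within nLung and 1.30 within KP(l), so that their spread lay in the KP(l) group. It was 0.44 and 0.87 for the monocyte markers and 0.53 and 0.99 for the activated genes. In bulk RNA of a sorted pool, fewer cells of a type and less RNA per cell cannot be told apart, and whether the RNA of these markers was made by cDC1 or by other cells in the pool was not tested.

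**Figure D3:**
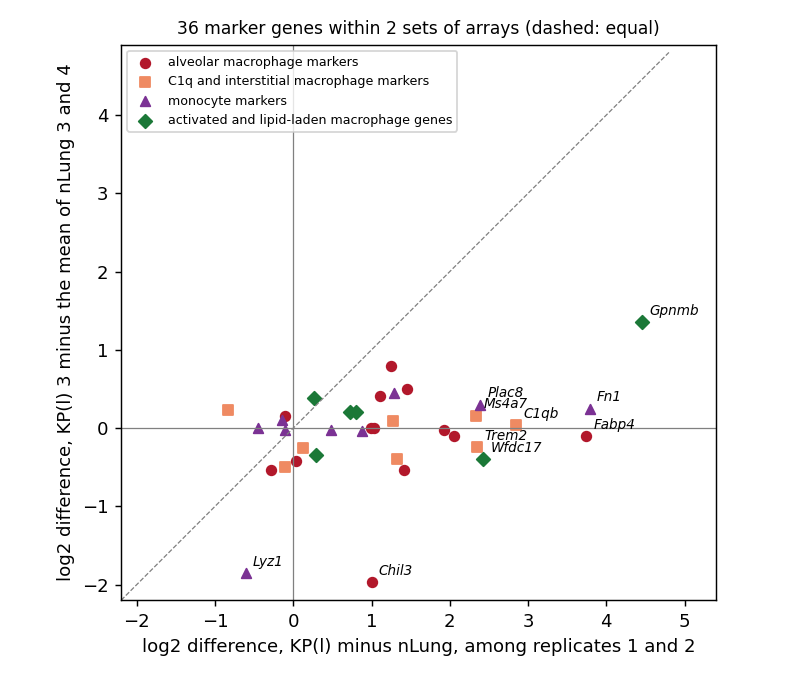
Each of 36 markers by its log2 difference, KP(l) minus nLung, among replicates 1 and 2 (horizontal) and between KP(l) replicate 3 and the mean of nLung replicates 3 and 4 (vertical), with equal differences on the dashed line. Most markers lie to the right of 0 and near 0 in height, Gpnmb is at 4.46 and 1.35, and Lyz1 and Chil3 lie lowest.

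The arrays that carried the markers were counted gene by gene. KP(l) replicate 1 was the highest array in 8 of 13 alveolar markers, 6 of 8 C1q and interstitial genes, 4 of 9 monocyte markers and 5 of 6 activated genes, and in 4913 of all 25428 probe sets. Ties were broken in the order of the arrays. The 3 highest arrays were nLung replicate 1 and KP(l) replicates 1 and 2 in 9 of 13 alveolar markers (69.2%), beside 5.12% of all probe sets. They were these arrays in 2 of 8 C1q and interstitial genes. nLung replicate 1 was the highest nLung array in 11 of 13 alveolar markers and in 3 of 8 C1q and interstitial genes, beside 27.1% of all probe sets. KP(l) replicates 1 and 2 were both above every nLung array in 14 of 36 members (38.9%), beside 8.46%, and this held for 5 of 8 C1q and interstitial genes and 4 of 13 alveolar markers. KP(l) replicate 3 was the lowest KP(l) array in 31 of 36 members (86.1%), beside 32.8%, and it was within the range of the nLung arrays in 26 of 36 (72.2%), beside 68.1%. These counts describe the arrays, and the members of a list are not independent of one another.

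Averaged over a list, the deviation of an array from the mean of each gene gave the same picture. For the alveolar markers it was 1.10, -0.57, -1.38 and -0.83 in nLung replicates 1 to 4 and 1.85, 1.08 and -1.25 in KP(l) replicates 1 to 3 on the log2 scale. For the C1q and interstitial genes it was -0.16, -0.17, -0.48 and -0.55 in nLung and 1.59, 0.41 and -0.63 in KP(l). The lists thus parted in nLung replicate 1, where the alveolar mean was high and the C1q mean was near that of nLung replicate 2. The summed linear expression of the alveolar markers was 242 to 1587 in nLung and 429 to 2311 in KP(l), and that of the C1q and interstitial genes 112 to 155 and 105 to 774. The sum of the monocyte markers was 178 to 229.5 in nLung and 144 to 717 in KP(l), and that of the activated genes 774 to 1203 and 825 to 2090.

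**Figure D4:**
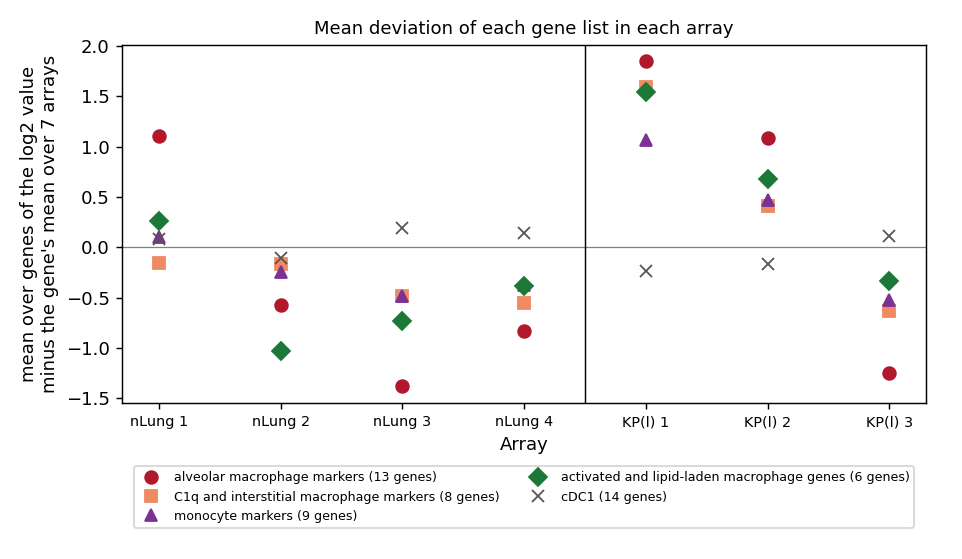
Mean log2 deviation from the gene means for each list of genes in each of the 7 arrays, on a common scale. The alveolar macrophage markers reach 1.10 in nLung replicate 1 and 1.85 and 1.08 in KP(l) replicates 1 and 2, while the cDC1 genes stay between -0.24 and 0.19.

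Markers of other cells also differed between single arrays. The cDC1 genes deviated on average by -0.24 and -0.17 in KP(l) replicates 1 and 2 and by -0.11 to 0.19 in the other 5 arrays. Their median deviations in KP(l) replicates 1 and 2 were -0.25 and -0.06. In KP(l) replicate 2 Cd207 was at 43.65, beside 267.8 to 507.2 in nLung, while Flt3 and Itgae were at their highest. The 12 neutrophil genes had a summed level of 107 to 149 in nLung and 102 to 1736 in KP(l), and the high value was KP(l) replicate 1. S100a8, an abundant protein of neutrophils, was at 834 in that array and at 3.79 to 5.84 in the other 6, and S100a9, its partner, was at 655 and at 7.63 to 27.1. These 2 genes made up most of the sum of 1736. In that array 8 of the 12 neutrophil genes were highest, with a mean deviation of 1.39 and a median of 0.50. Ly6g, Mpo, Elane and Camp were not highest there, at 9.43, 13.3, 9.04 and 4.42. The 12 T and NK cell genes had a sum of 351 in KP(l) replicate 1 and of 114 to 166 in the other 6 arrays, with Cd8b1, a chain of CD8, at 218 and at 11.1 to 17.5. Cd8b1 alone made up most of the sum of 351. The median deviation of the T and NK cell list in that array was 0.03, and 5 of its 12 genes were highest there. The B cell genes deviated by 0.54 in that array and by -0.25 to 0.07 in the others, while their sum of 400.2 was the lowest of the 7. The 12 genes of alveolar and airway epithelium had a summed level of 445 to 2575 in nLung and 300.3 to 550.0 in KP(l), and the high value was nLung replicate 1. In that array Scgb1a1, of airway club cells, was at 1619 and Sftpc, a surfactant protein, at 660.5, beside 29.4 to 509 and 23.2 to 132 elsewhere. Scgb1a1 and Sftpc made up most of the sum of 2575. The epithelial list had a mean deviation of 0.70 and a median of 0.03 in nLung replicate 1, and 5 of its 12 genes were highest there. In KP(l) replicate 2 neither the neutrophil nor the epithelial list was above the nLung range, with sums of 130.1 for the neutrophil genes and 300.3 for the epithelial genes, while the alveolar macrophage sum was 1956. The part of these cells in the marker differences was not tested.

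The markers were also compared with one another over the 7 arrays. Pearson's r is given as a description, since the values share arrays, pools and normalization. Its median was 0.70 over 78 pairs of alveolar markers, 0.64 over 28 pairs of C1q and interstitial genes and 0.64 over the 104 pairs between these lists. Among the monocyte markers the median was 0.06 over 36 pairs, with a lowest of -0.88 and a highest of 0.96. Cebpb and C5ar1 had r of 0.99 and 0.96 with the mean of the alveolar markers.

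Further genes of the same cell types were taken from 3 lists that hold no member. Not all of them are particular to these cells. Itgax, the gene of the sort antigen CD11c, was at 500.2 to 595.5 over the arrays and Cd68 at 1150 to 1737, while Mme was at 5.10 to 6.22. The list medians mix such genes, and how much of this RNA cDC1 made was not tested. Of 24 other alveolar macrophage genes, 4 had an unadjusted p under 0.05 in limma on the higher side and 0 on the lower side, with a median difference of 0.25. Of 19 other interstitial macrophage genes 3 were higher and 1 lower, with a median of 0.22, and of 20 other monocyte genes 2 were higher and 1 lower, with a median of 0.10. Over all probe sets these shares were 2.62% on the higher and 2.24% on the lower side. No gene of these lists passed the test after adjustment.

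The alveolar genes with the largest differences were F7 and Atp6v0d2. Atp6v0d2, a subunit of the proton pump of lysosomes, had 209, 21.7, 7.161 and 7.401 in nLung and 352, 73.9 and 8.73 in KP(l), the same order of arrays as Lpl at the top. F7, coagulation factor VII, had 26.8, 11.3, 16.7 and 12.7 in nLung and 70.7, 93.2 and 16.9 in KP(l). The interstitial list was led by Ctsd, the lysosomal protease cathepsin D, and Apoe, a lipid carrier. Ctsd had 509.5, 153, 55.1 and 81.3 in nLung and 1444, 795 and 142.5 in KP(l), with a difference of 2.00 ± 1.03 (SE, limma), and 1.94 and 1.09 within the sets. Apoe had 78.8, 52.5, 30.9 and 44.2 in nLung and 284, 218 and 60.4 in KP(l), with a difference of 1.67 ± 0.58 (SE, limma), and 1.95 and 0.71 within the sets. In the monocyte list Spn, the sialophorin CD43 of leukocytes, had 60.4, 46.6, 51.9 and 41.97 in nLung and 13.95, 25.3 and 34.6 in KP(l). Every KP(l) array was below every nLung array, with a difference of -1.11 ± 0.31 (SE, limma, unadjusted p = 0.00967, adjusted p = 0.912) that was -1.50 and -0.43 within the sets. Clec4e, a receptor for damaged cells and mycobacterial lipid, had a difference of 0.90 and was low in all arrays but KP(l) replicate 1, where it was 14.9.

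Outside the members, the probe sets whose values followed the mean of the alveolar markers most closely included Cyp27a1 (r = 0.996), Mrpl32 (0.976), Atp6v0d2 (0.972), Ctsd (0.963), Gm9755 (0.956), Pld3 (0.955) and Marco (0.948), each r over 7 arrays. Of the 12686 probe sets outside the members with a mean above the median, 27 (0.213%) had an r of 0.9 or more. More of them, 53, had an r of -0.9 or less, so that close likeness was no more frequent than its opposite. Marco, a scavenger receptor of alveolar macrophages, had 37.4, 20.5, 13.1 and 11.1 in nLung and 42.2, 27.9 and 12.3 in KP(l). Cyp27a1, a sterol hydroxylase, kept the order of the arrays over a narrow range, from 162 to 268. Nothing on shared function or control is read from this likeness.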

How the data were processed

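RNA of sorted lung cDC1 was hybridised to 7 Affymetrix Mouse Gene 2.0 ST arrays, 4 nLung and 3 KP(l), grouped by the sample labels. The authors deposited log2 values made by RMA (background correction, quantile normalization, median polish) with affy (R 3.4.2, Bioconductor 3.5), using the Entrez definition file 22.0.0 of BrainArray. RMA pulls array distributions together and compresses differences at low intensity. The methods name the 3'IVT protocol and the labels a NuGEN amplification. Deposited log2 values were used as they were, with no filter and no detection call. Their number, 7 arrays, limits the precision, and p-values measure the spread between pools.

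Of 25428 probe sets, 24705 were named by the platform table and 564 more through the RefSeq gene table, and 159 had no name. limma 3.58.1 (R 4.3.3; lmFit, eBayes) compared KP(l) with nLung without covariates, with Benjamini-Hochberg adjustment over the whole array. The study's thresholds were kept for a call, an adjusted p up to 0.05 together with at least a 2-fold difference. SAM, the study's test, was rewritten with all 35 label assignments (s0 = 0.0484). samr itself was not run. Scripts were tested on simulated data.

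The members and gene lists, and the 2 sets of arrays, were chosen with earlier results of these data known. The values of every array are given for the 2 members of each list with the highest mean, the 3 with the largest SD and all with an unadjusted p under 0.05 or without overlap. From each further macrophage or monocyte list the 2 genes with the largest differences are named, with the 8 probe sets most like the alveolar mean, of which 1 is not reported here. Other members with values, and the genes of other cell types, were picked after their values were seen. Alternatives were an intensity trend, array weights, renormalization, median centring, a filter at the median mean, the omission of single arrays, a block for the replicate number or for the set of arrays, each set alone, no fold threshold, ratios of linear means and SAM. Plots used matplotlib 3.10.9 (Python 3.11.15).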

Additional observations from a re-analysis of the deposited data

Results flagged for a closer look

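In 3 alveolar macrophage markers the control array nLung replicate 1 lay far above the other nLung arrays on the log2 scale. The gap to the next array, as a share of the whole range of the 4 nLung arrays, was 0.852 for Fabp4, 0.893 for Fabp5 and 0.868 for Car4, each above Dixon's critical value for 4 values. Of the 36 members and 4 list means looked at in this way 3 passed. Chance passes about 1 in 20, so the count is near that share and is not read as an excess. The list means are built from the same members, and the share over all probe sets was not computed. The 3 genes are not independent, and the epithelial genes Scgb1a1 and Sftpc were also highest in that array, at 1619 and 660.5 in linear expression. The KP(l) group has 3 arrays and was not looked at.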

How the results depend on the processing

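In every alternative run, 0 members and 0 probe sets were called, the rewritten SAM and no fold threshold included. The count of members with an unadjusted p under 0.05 in limma, 8 with all arrays, was 0 to 16 when 1 array was left out. The count of members whose groups do not overlap, 3 with all arrays, was 5 after quantile normalization once more, 5 with each array centred on its median, and 3 to 16 when 1 array was left out. With 1 array left out, the median log2 difference was 0.33 to 2.03 for the alveolar markers, 0.19 to 1.69 for the C1q and interstitial genes (-0.10 within the second set of arrays), -0.07 to 0.95 for the monocyte markers, 0.21 to 0.92 for the activated genes and 0.32 to 1.49 for all members.

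Same-numbered arrays did not deviate together throughout (correlations of 0.08, 0.02 and 0.19), so the number was not taken as a pairing. With a replicate block 6 members had an unadjusted p under 0.05 and 0 were called, and the medians were 0.74, 0.74, 0.30 and 0.55 for the 4 lists and 0.67 for all members.

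Some member differences changed sign, none of them called, and the cause was not tested. Within the second set of arrays these were Chil3 (-1.97), Fabp4 (-0.10), Fabp5 (-0.53), Lpl (-0.02), Ctsk (-0.10), C1qc (-0.40), Trem2 (-0.24), Cebpb (-0.04), Lgals3 (-0.35), Wfdc17 (-0.40), Adgre1 (-0.26), Cd14 (-0.02), Maf (0.23) and Vcan (0.10). With the sets as a block Chil3 was -0.19. With 1 array left out, Chil3 ran from -0.52 to 2.51, C1qc from -0.09 to 1.89, Lgals3 from -0.10 to 0.27 and Tgm2 from -0.07 to 0.80. Members with small differences turned as well, among them Siglecf (-0.17), Cidec (-0.32), Adgre1 (-0.34) and Cd14 (-0.28) without KP(l) replicate 1 and Fabp1 (0.96) without nLung replicate 1. The second set holds 1 KP(l) array and gives values only. No detection calls were used, so levels near the array median may be background.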
